A study of Mus musculus with 7 samples.

Results

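The 9 genes described here form the core of the mouse hedgehog pathway: the ligands Shh, Ihh and Dhh, the receptor Ptch1, the signal transducer Smo, the transcription factors Gli1, Gli2 and Gli3, and the ligand-binding inhibitor Hhip. They were chosen by gene name among the non-control probes of an Agilent mouse expression array, where they carry 15 of 56605 probes and make up 9 of the 37074 gene names in the files. The 7 arrays held mammary gland RNA, 3 of them from wild-type and 4 from PRA transgenic mice. In the PRA transgenics an extra copy of the progesterone receptor isoform A is switched on by the yeast activator GAL-4, and GAL-4 is itself driven by a murine cytomegalovirus promoter. That promoter is not restricted to the mammary gland or to its epithelium. All 7 mice were nulliparous FVB adults aged 20 to 25 weeks and taken at diestrus, the wild-type mice being littermates without the extra receptor. From each mouse 1 abdominal gland was used whole, after its lymph nodes were cut out, so every value is an average over epithelium, stroma, fat, vessels and nerves. On each array the gland RNA was labelled with Cy5 and a common reference RNA, pooled from 11 mouse cell lines, with Cy3.

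Hedgehog proteins are secreted ligands that bind Ptch1 on the receiving cell. Free of ligand, Ptch1 holds Smo inactive, and Gli3 and part of Gli2 are cut into repressors. Ligand binding frees Smo, which gathers in the primary cilium and lets full-length Gli2 and Gli3 activate targets, among them Gli1, Ptch1 and Hhip. Gli1 and Ptch1 transcripts are therefore widely read as a gauge of pathway output, and Ptch1 and Hhip act as brakes that are made in response to the signal. In the mammary gland the pathway is known for being held down in the epithelium, with Gli3 repression needed for the embryonic buds and Gli2 found mainly in the stroma around ducts.

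The probes show which stretch of each transcript was read. They are 60 bases long, and the last 30 bases of those that the results turn on are given here 5′ to 3′, in lower case, with the polyadenylation signal AATAAA in capitals. Positions are given on mm9 as the files list them, and the exon or untranslated region each lies in was not worked out, since no annotation of that build was used here.
Hhip A_66_P132865, chr8:82489879-82489938, minus strand: ggatttaatgaatttttaggtgaaaggatg
Hhip A_55_P1969276, chr8:82494280-82494339, minus strand: ttttgtctctgttactttctcttcatagtc
Dhh A_52_P232637, chr15:98723465-98723524, minus strand: tttgtggccaaAATAAAgattctagagtga
Gli2 A_52_P357829, chr1:120731255-120731314, minus strand: ttaactgaatttgcttgttcagtatggcct
Ptch1 A_51_P127435, chr13:63612907-63612966, minus strand: catgtcaggtgtgagaggagggactcaaag
Ptch1 A_65_P18909, chr13:63638793-63638852, minus strand: tttagaaaatccagtacgctaagttctccc
Gli1 A_55_P2183587, chr10:126766967-126767026, minus strand: gaaagaacaaactttaataatgacacagtt
Gli3 A_51_P171288, chr13:15821502-15821561, plus strand: tcctgcagatgtgtaaAATAAActgtgttc
The Dhh and Gli3 probes hold the signal near their ends, while the other 6 shown do not. Of the 15 member probes 3 hold AATAAA in their last 30 bases, the third being a probe of Ihh, against 8.13% of all probes. The 2 Hhip probes lie 4341 bases apart on the chromosome, and the outermost Ptch1 probes 31517 bases apart, so probes of 1 gene can read different transcript forms.

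The value reported for a probe is the log2 ratio of Cy5 to Cy3, that is, gland over reference. Since every array carried the same reference, a second value is given for each tested member, the Cy5 signal alone as log2 minus the array's 75th percentile. Values of other genes and of markers are log2 ratios unless Cy5 is named. Probes hybridise with different strength, so levels are compared between mice for each probe and never between genes. Fold changes are PRA transgenic minus wild-type in log2 units, from limma with Benjamini-Hochberg adjustment over all 34283 probes whose Cy5 signal rose well above background on every array of 1 genotype or both. The share of probes well above background in Cy5 was 62.6% to 66.1% on the wild-type arrays and 56.6% to 60.2% on the PRA transgenic arrays (exact permutation test over 35 splits, two-sided p = 0.0286, the smallest it can give). In Cy3, with the same RNA on every array, it was 53.2% to 54.0% and 47.2% to 50.6% (p = 0.0286, the same exact test). All arrays lay on 1 slide, whose row 1 held every wild-type array and row 2 every PRA transgenic array, so genotype and row cannot be told apart. Markers of the labelled tissue were present, the mean log2 ratio being 2.76 to 3.52 for 11 luminal epithelial genes, 2.62 to 3.07 for 8 basal genes and 5.27 to 6.04 for 9 white adipocyte genes. Wild-type 1 stood apart in 7 T cell markers, at a mean of 2.18 against -0.34 to 0.36 on the other arrays, and in 4 B cell markers, at 0.76 against -1.62 to -0.78.

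Across the pathway, the 95% intervals of Ptch1, Smo, Gli1 and Gli3 included 0 in both readouts. Those of Dhh and Hhip lay below 0 in the ratio to the reference but included 0 in Cy5 alone. That of Gli2 lay below 0 in Cy5 alone, at a probe kept only through the wild-type mice, which is no support for a lower level. No member passed the test after adjustment. Of the 9 genes 7 could be tested, with 10 of their 15 probes kept, and 0 had an adjusted p under 0.05 in the log2 ratio or in Cy5, where 0.0117% and 0.0146% of all probes did. At an unadjusted P under 0.05, 2 of the 7 genes were called in the log2 ratio, Dhh and Hhip, both lower, where 9.02% of all probes were called and 4.48% were called lower. Cy5 alone gave 1 of 7, Gli2, also lower and kept only through its wild-type arrays, where 8.73% of probes were called and 4.56% lower. The median difference over the 7 genes was -0.19 in the log2 ratio and -0.22 in Cy5, with 4 of 7 genes lower in each. Over all probes tested the medians were 0.02 and 0.00, and 45.8% and 49.5% were lower. The lower genes include Gli2, kept only through the wild-type mice, and Hhip, whose ratio rests on a reference at the background. The tally and the medians are therefore no support for a lower level of the pathway. In bulk tissue, fewer cells of a type and less RNA per cell cannot be told apart, which holds for every value that follows.

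**Figure D1:**
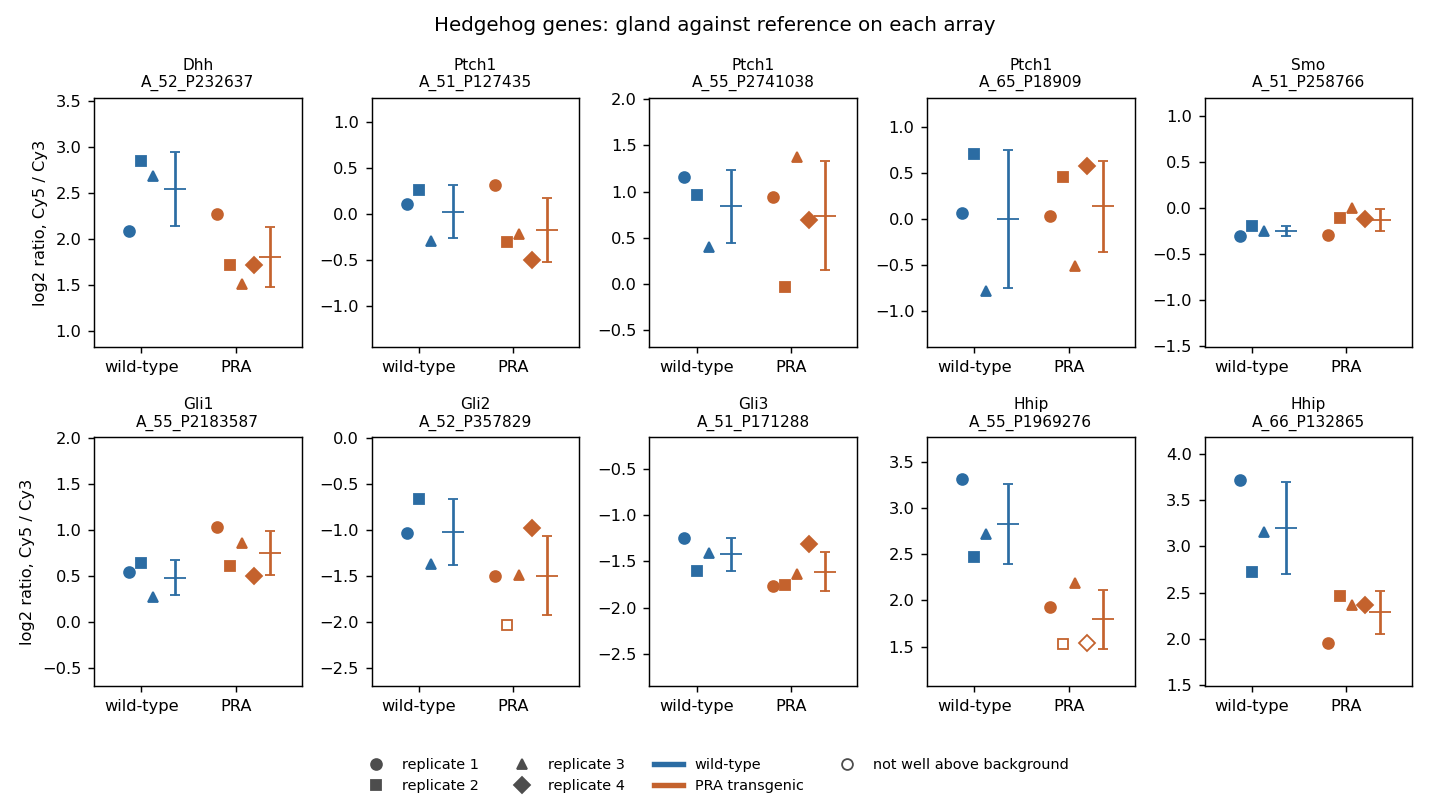
Log2 ratio of gland (Cy5) to reference (Cy3) for the 10 kept member probes, 1 panel a probe, with the 3 wild-type and 4 PRA transgenic arrays as points (1 symbol a replicate) and the group mean with its SD as a bar beside them, all panels spanning the same length of axis. Open points mark arrays on which Cy5 was not well above background. The 2 Hhip panels are the only ones in which the genotypes do not overlap, beside 9.95% of all probes tested. At both Hhip probes the reference was above background on 0 of 7 arrays. Hhip A_55_P1969276 was kept only through the wild-type mice.

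Among the ligands, Dhh alone was measured in the gland. Shh, the ligand of limb and neural tube patterning, has 1 probe, and it stayed near background in both channels of every array. Ihh, the ligand known from cartilage growth and gut, has 2 probes, of which 1 was above background in Cy5 on wild-type 2 only and the other on none. Neither gene was tested, and since a probe below background gives only an upper bound, a low level of either transcript was not detectable on these arrays. Dhh, best known as the ligand of Schwann cells and of Sertoli cells in the testis, was above background in Cy5 on all 7 arrays. Its log2 ratio was 2.09, 2.85 and 2.69 in the wild-type mice and 2.27, 1.72, 1.51 and 1.72 in the PRA transgenics. PRA transgenic 1 lay above wild-type 1, so the groups overlapped, and the other 3 PRA transgenics lay below every wild-type mouse.

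The Dhh difference was -0.74 (SE 0.25, 95% interval -1.32 to -0.15), from 2.54 ± 0.40 (SD, n = 3) to 1.80 ± 0.33 (SD, n = 4), with an unadjusted P of 0.020 and an adjusted p of 0.463 (limma). In Cy5 alone the wild-type values were -1.19, -0.38 and -0.86 and the PRA transgenic values -0.73, -1.33, -0.68 and -1.39. These overlapped widely, and the difference was -0.23 (SE 0.26, 95% interval -0.84 to 0.39, adjusted p = 0.853). The reference channel itself was 0.52 higher on the PRA transgenic arrays at this probe (unadjusted P = 0.068), although it held the same RNA, and it was above background there on 6 of 7 arrays. Markers of Schwann cells, which are known to make Dhh, had mean log2 ratios of 1.97 to 2.07 in wild-type and 1.72 to 2.19 in PRA transgenic mice, over 8 genes (exact permutation test, two-sided p = 0.657). The unadjusted P of the Dhh ratio was 0.077 without wild-type 2, 0.065 without wild-type 3 and 0.052 without PRA transgenic 3.

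Hhip, a membrane protein that captures hedgehog ligands and is induced by the pathway, had the widest range of log2 ratios over the 7 arrays among the tested members. Its brighter probe, A_66_P132865, gave log2 ratios of 3.72, 2.72 and 3.15 in the wild-type mice and 1.95, 2.46, 2.37 and 2.36 in the PRA transgenics. The other probe, A_55_P1969276, gave 3.31, 2.47 and 2.72 in wild-type and 1.93, 1.52, 2.19 and 1.54 in the PRA transgenics. At both probes every wild-type mouse lay above every PRA transgenic, and wild-type 1 was the highest. Hhip was 1 gene of 7 without overlap between the genotypes, where 9.95% of all probes did not overlap and 4.53% were lower without overlap. In Cy5 alone 0 of 7 genes were without overlap, beside 9.66% of all probes.

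The Hhip difference was -0.91 (SE 0.25, 95% interval -1.50 to -0.32) at the brighter probe, from 3.20 ± 0.50 (SD, n = 3) to 2.28 ± 0.23 (SD, n = 4), with an unadjusted P of 0.008 and an adjusted p of 0.412 (limma). At the other probe it was -1.04 (SE 0.26, 95% interval -1.64 to -0.43, unadjusted P = 0.005, adjusted p = 0.391). In Cy5 that second probe exceeded background on all 3 wild-type but 2 of 4 PRA transgenic arrays, so it was kept only through the wild-type mice and adds no support to the brighter one. Neither probe passed the adjusted threshold. Without wild-type 1 the differences were -0.65 and -0.80.

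The gland signal of Hhip alone differed less. In Cy5 the brighter probe stood at -2.35, -3.41 and -2.93 in wild-type and -3.32, -3.16, -3.01 and -3.18 in the PRA transgenics. All 4 PRA transgenics lay between wild-type 2 and wild-type 3, and only wild-type 1 lay far from them. The difference in Cy5 was -0.28 (SE 0.24, 95% interval -0.84 to 0.29, adjusted p = 0.788), and without wild-type 1 it was -0.002. The other probe gave -2.36, -3.60 and -3.31 against -3.26, -4.05, -3.13 and -3.98, a difference of -0.51 (SE 0.36, 95% interval -1.35 to 0.33, adjusted p = 0.734), or -0.15 without wild-type 1. The 2 arrays on which it was not well above background were those of PRA transgenic 2 and 4. Wild-type 1 is also the array with the high T and B cell markers given above, and their part in the Hhip values was not tested.

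The reference gave no measured Hhip level. At both Hhip probes Cy3 was well above background on 0 of 7 arrays, so the gland-to-reference ratio rests on a reference value at the background. That value was 0.65 higher on the PRA transgenic arrays at the brighter probe (limma, unadjusted P = 2.93e-04) and 0.53 higher at the other (limma, unadjusted P = 0.00684). These tests compare values at the background, not measured reference levels. At the member probes that were not kept, Cy3 was also not well above background on any array. There it was higher by 0.54 for Shh, 0.62 for Smo, 0.69 for Gli1 and 0.68 for Ihh A_52_P403398. The other Ihh probe gave -0.89. Of the kept probes 3651, or 10.6%, had a reference below background on every array. Their median difference was -0.21 in the log2 ratio, -0.07 in Cy5 and 0.18 in Cy3, and 13.9% of them were lower in the ratio at an unadjusted P under 0.05. Among the 25192 probes whose reference was above background on all arrays the median was 0.02 and 3.39% were lower at that P. Hhip thus belongs to a class of probes in which lower ratios were more frequent, and the part of the reference in its difference was not tested separately. With another background correction, normexp followed by loess, the differences were -0.44 at the brighter probe and -0.23 at the other, both with no adjusted p under 0.05 (0.517 and 0.805).

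**Figure D2:**
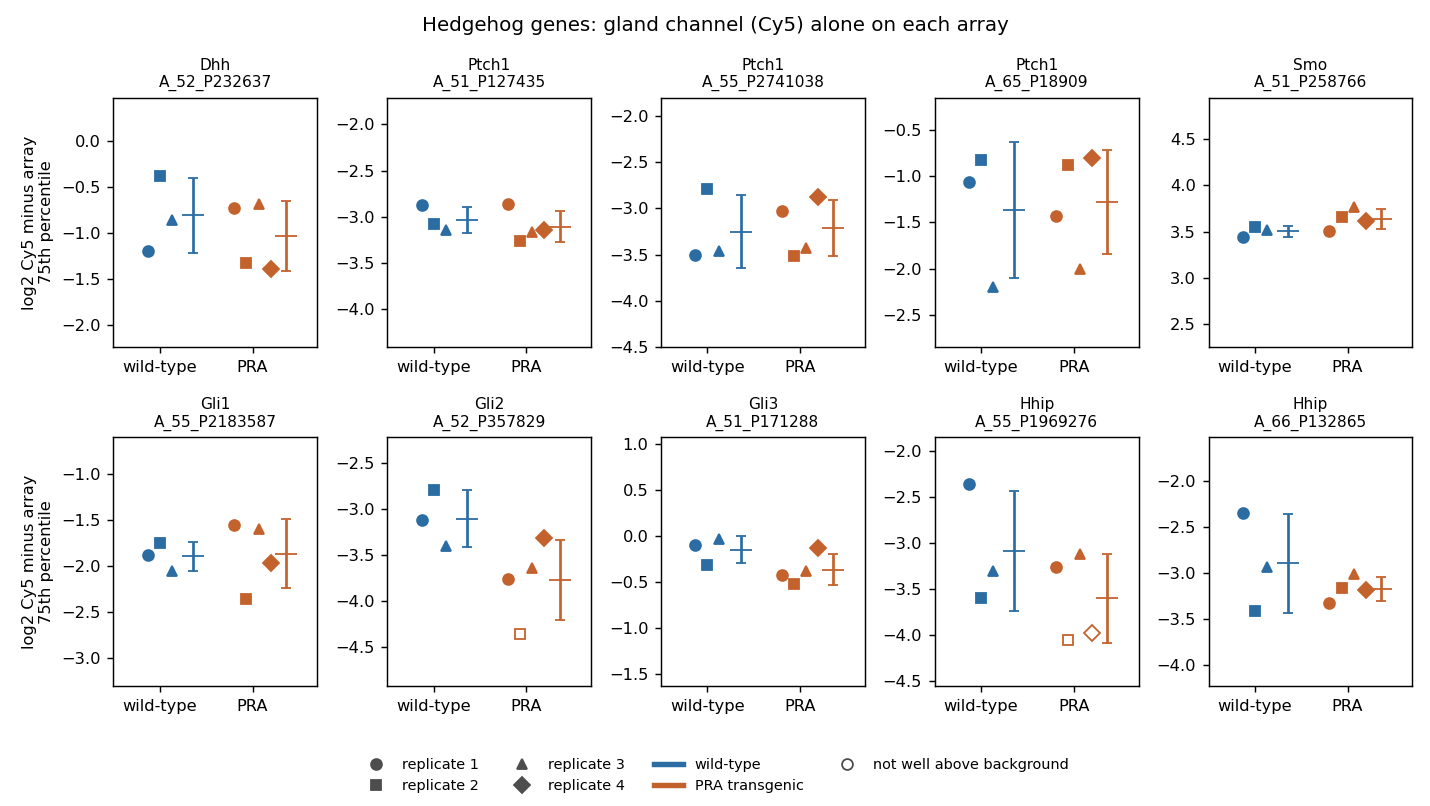
Cy5 signal alone (log2 minus the 75th percentile of the array) for the same 10 probes, with points and mean and SD bars as in the plot of log2 ratios. No member has genotypes that do not overlap, beside 9.66% of all probes tested. The 4 PRA transgenic values of the brighter Hhip probe, -3.32 to -3.01, lie within the wild-type range of -3.41 to -2.35.

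Ptch1, the hedgehog receptor and a target of the pathway, was measured with 3 probes, none of which passed the test. The brightest, A_65_P18909, was assigned by the files to the transcript ENSMUST00000195258, and gave log2 ratios of 0.07, 0.71 and -0.78 in wild-type and 0.04, 0.46, -0.51 and 0.58 in the PRA transgenics. Both genotypes spread over more than the distance between their means, with wild-type 3 the lowest array. The difference was 0.14 (SE 0.40, 95% interval -0.80 to 1.08, adjusted p = 0.953), which is wide enough to allow a change from 0.576-fold to 2.11-fold. A_51_P127435, assigned in the files to the RefSeq transcript of Ptch1, gave 0.10, 0.26 and -0.30 against 0.31, -0.31, -0.21 and -0.50. Here too the groups overlapped, with a difference of -0.20 (SE 0.23, 95% interval -0.74 to 0.34, adjusted p = 0.843). The third probe, A_55_P2741038, differed by -0.10 (SE 0.35, adjusted p = 0.964), with the reference above background on 1 of 7 arrays. In Cy5 alone the 3 differences were 0.08, -0.07 and 0.04, with adjusted p from 0.920 to 0.982. The sign of the Ptch1 difference changed between probes and with the scaling, so no direction is given.

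Smo, the membrane protein that Ptch1 holds inactive, was the most evenly measured member. Its kept probe gave log2 ratios of -0.31, -0.20 and -0.25 in wild-type and -0.30, -0.11, -0.01 and -0.12 in the PRA transgenics. Wild-type mice spanned little, and PRA transgenic 1 lay among them. The difference was 0.12 (SE 0.12, adjusted p = 0.811), and its 95% interval of -0.15 to 0.39 runs from 0.898-fold to 1.31-fold, so a larger change than that is outside the interval. Cy5 alone gave 0.13 (SE 0.11, 95% interval -0.13 to 0.40, adjusted p = 0.783). The second Smo probe, matched to another transcript 23250 bases away, was not above background on any array.

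Gli1, which activates transcription and is itself made in answer to the signal, had log2 ratios of 0.54, 0.64 and 0.27 in wild-type and 1.04, 0.62, 0.86 and 0.50 in the PRA transgenics. PRA transgenic 1 and 3 lay above all wild-type mice and PRA transgenic 2 and 4 among them. Its difference was 0.27 (SE 0.17, 95% interval -0.14 to 0.67, adjusted p = 0.698), from 0.48 ± 0.19 (SD, n = 3) to 0.75 ± 0.24 (SD, n = 4). In Cy5 alone the values were -1.88, -1.74 and -2.05 against -1.55, -2.36, -1.60 and -1.96. The lowest and the highest gland signal were both in PRA transgenics, and the difference was 0.03 (SE 0.22, 95% interval -0.48 to 0.53, adjusted p = 0.986). At the Gli1 probe the reference was 0.23 lower on the PRA transgenic arrays (unadjusted P = 0.131). A second Gli1 probe was below background on all arrays. For Gli1 and Ptch1, the usual gauges of pathway output, the groups overlapped in both readouts and every interval included 0.

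Gli2, the main activator of the pathway, showed the reverse of Dhh and Hhip, with the larger difference in the gland channel. Its Cy5 values were -3.12, -2.80 and -3.40 in wild-type and -3.76, -4.36, -3.65 and -3.32 in the PRA transgenics. PRA transgenic 2 was the lowest, and PRA transgenic 4 lay above wild-type 3, so the groups overlapped. The probe was well above background on 3 of 3 wild-type and 3 of 4 PRA transgenic arrays, not on that of PRA transgenic 2, so it was kept only through the genotype in which it is higher, and its call is no support for a lower level. The difference was -0.66 (SE 0.26, 95% interval -1.28 to -0.05), from -3.11 ± 0.30 (SD, n = 3) to -3.77 ± 0.43 (SD, n = 4), with an unadjusted P of 0.037 and an adjusted p of 0.544 (limma). Its log2 ratios were -1.03, -0.67 and -1.38 against -1.50, -2.03, -1.49 and -0.98. Again PRA transgenic 4 lay among the wild-type mice, and the difference was -0.48 (SE 0.27, 95% interval -1.12 to 0.17, adjusted p = 0.659). The reference was 0.18 lower on the PRA transgenic arrays at this probe (unadjusted P = 0.0191). In Cy5 the unadjusted P was above 0.05 in 5 of 7 fits with an array left out, at 0.078 without wild-type 1, 0.129 without wild-type 2, and 0.066, 0.063 and 0.053 without PRA transgenic 1, 2 and 3. In the ratio it was 0.036 without PRA transgenic 4. With normexp and loess the ratio differed by -0.13.

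Gli3, known mainly as the repressor of the family, had log2 ratios of -1.25, -1.61 and -1.41 in wild-type and -1.76, -1.75, -1.63 and -1.31 in the PRA transgenics. PRA transgenic 4 lay among the wild-type mice and the other 3 below them all. The difference was -0.19 (SE 0.16, 95% interval -0.57 to 0.18, adjusted p = 0.771), and in Cy5 alone it was -0.22 (SE 0.14, 95% interval -0.54 to 0.11, adjusted p = 0.707). At the Gli3 probe the reference differed by -0.02, so ratio and gland signal gave the same size. For Gli2 and Gli3, whose transcripts are known from mammary stroma, fibroblast markers stand beside the values: 10 genes averaged 2.31, 2.10 and 1.77 in wild-type and 1.82, 1.83, 1.85 and 2.19 in the PRA transgenics (exact permutation test, two-sided p = 0.40). PRA transgenic 4 was the highest of its group in the fibroblast markers, in Gli2 and in Gli3. The wild-type mice did not keep 1 order in the log2 ratios. Wild-type 1 was the highest in the markers and in Gli3, but wild-type 2 in Gli2. Wild-type 3 was the lowest in the markers and in Gli2, but wild-type 2 in Gli3. The part of these markers in the 2 genes was not tested.

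**Figure D3:**
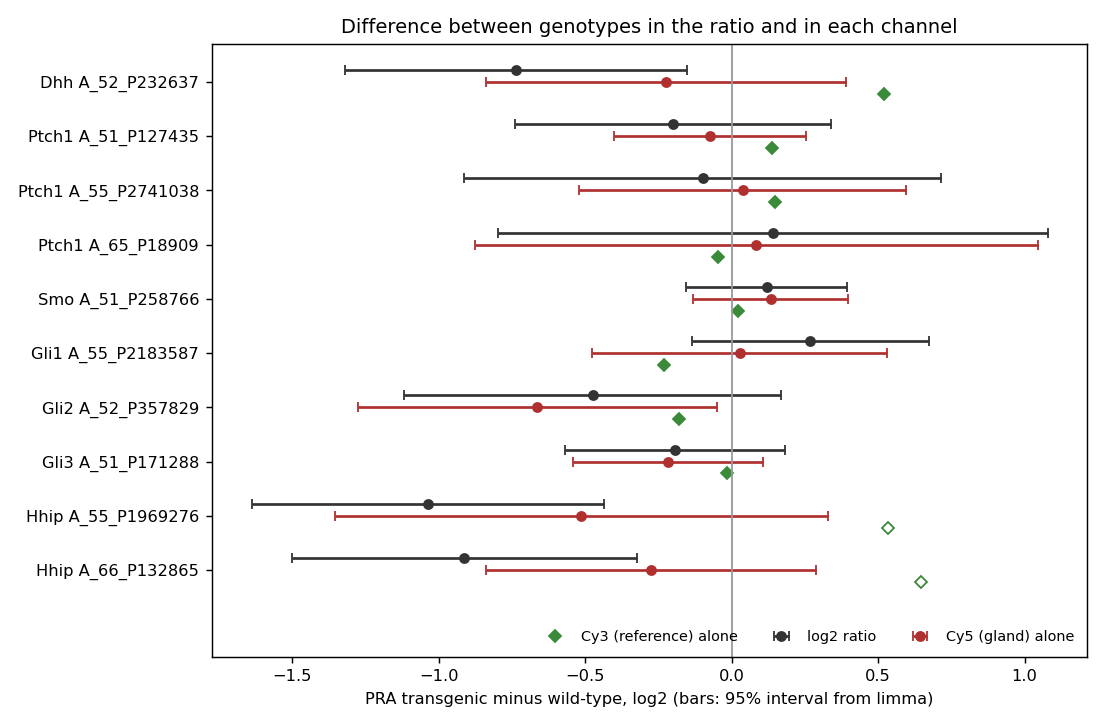
Difference between the genotypes (PRA transgenic minus wild-type, log2) for each kept member probe, in the log2 ratio and in Cy5 alone with 95% intervals from limma, and in Cy3 alone as diamonds, open where the reference was above background on no array. The Hhip and Dhh ratios lie below 0 with Cy5 intervals across 0 and Cy3 above 0. Gli2 has its Cy5 interval, -1.28 to -0.05, below 0, at a probe kept only through the wild-type mice.

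The wider pathway was read from the same fit through 6 lists of 103 genes in all, which partly share genes and hold the members Gli1, Ptch1 and Shh. Of the 103 genes 93 could be tested, 0 had an adjusted p under 0.05, and the lowest adjusted p was 0.391. At an unadjusted P under 0.05, 2 were higher and 5 lower, or 7.53% of those tested beside the 9.02% of all probes. Those called lower made up 5.38%, beside 4.48% of all probes. The median difference of the 93 genes was 0.00. Genes for making and releasing the ligand gave 1 of 9 called, Ext2, which builds the heparan sulfate chains that carry hedgehog proteins, at 0.42 (SE 0.16, adjusted p = 0.511). Co-receptors and the second Patched receptor, among them Cdon, Boc and Gas1, gave 0 of 5. Relay proteins and brakes below Smo, including Sufu and Kif7, gave 2 of 20. These were Stk36, a kinase known as Fused, at 0.37 (SE 0.13, adjusted p = 0.491) and Spop, an adaptor for Gli degradation, at -0.37 (SE 0.16, adjusted p = 0.543). Each has a second kept probe with the opposite sign, at -1.13 and 0.18, so neither has a settled direction.

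Of 14 genes of the primary cilium, where Smo acts, 1 was called: Kif3a, a motor subunit of transport into the cilium, at -0.57 (SE 0.14, adjusted p = 0.391) and at -0.67 in Cy5 alone (SE 0.13, adjusted p = 0.324). Its PRA transgenic values lay below all wild-type values in both, although a second Kif3a probe gave 0.19. The median of the cilium list was 0.08. Among 18 tested transcriptional targets 2 were called, both lower, where 4.48% of all probes were called lower. In Cy5 alone 1 of the 18 was called lower, Foxf1, where 4.56% of all probes were. Foxf1, a mesenchymal factor, differed by -0.91 (SE 0.31, adjusted p = 0.466) and by -0.90 in Cy5 alone, with Cy5 above background on 6 of 7 arrays, so its probe was kept only through the wild-type mice. Pthlh, the hormone-like peptide that instructs mammary mesenchyme, differed by -1.54 (SE 0.54, adjusted p = 0.473) and by -0.96 in Cy5 (SE 0.52, adjusted p = 0.645), and its reference, like that of Hhip, was above background on 0 arrays. A list of 36 genes, Gli1, Ptch1 and Shh among them, was typed by symbol after the hallmark hedgehog signalling set that the study named on these samples, and its membership was not checked against that set. In it 1 of 29 tested genes was called, Nrcam, a neural adhesion molecule, at -1.07 (SE 0.26, adjusted p = 0.391) and at -0.98 in Cy5. The median of that list was -0.04, with 15 of 29 genes lower, and as the set was picked on these mice the list's values are not independent evidence.

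**Figure D4:**
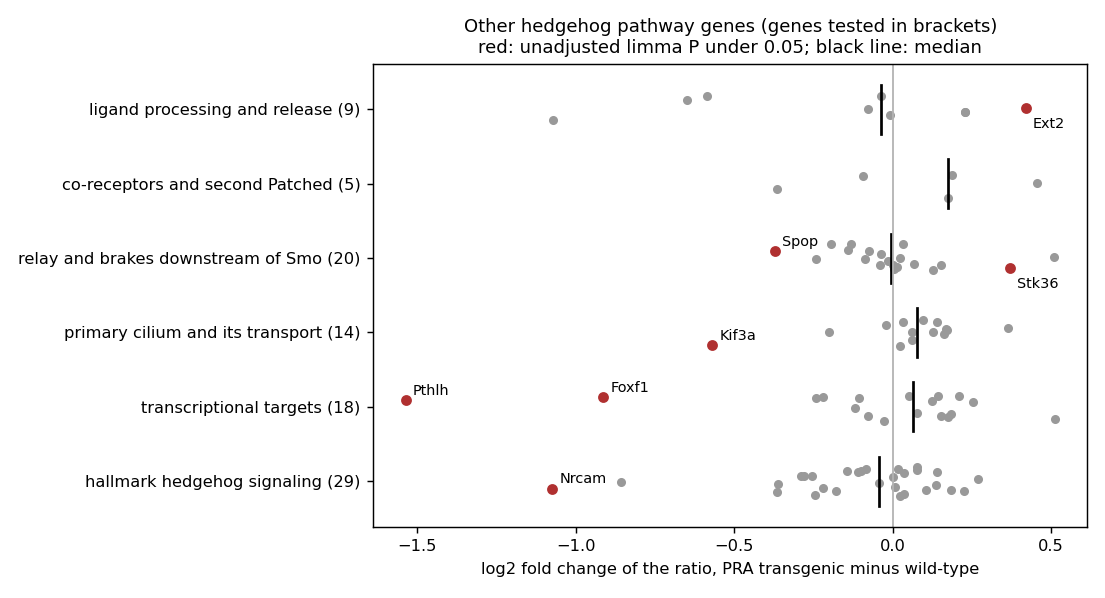
Difference between the genotypes in the log2 ratio for each tested gene of the 6 pathway lists, 1 row a list, with the list median as a bar and the genes at an unadjusted P under 0.05 named. The 6 medians lie between -0.04 and 0.17.

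The genes whose pattern over the 7 arrays was most like that of the 3 most variable tested members were found by the root mean square difference of mean-centred log2 ratios, among 15140 genes. Nearest to Hhip were Tlr1 (0.0885), Fzd10 (0.111) and Ror1 (0.201), beside a range of 1.77 for Hhip itself. For Ptch1 they were Diras2 (0.201), Defa-rs12 (0.205) and Sts (0.238), with a range of 1.48, and for Gli2 they were Snx24 (0.112), Plpp3 (0.116) and Nr1d1 (0.117), with a range of 1.36. None of the members was among the nearest of another. Fzd10 shares with Hhip a reference above background on 0 of 7 arrays, whereas that of Tlr1 was above background on all 7.

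Promoter sequence was read for the Gli consensus GACCACCCA, on both strands, in windows from 250 bases before to 50 bases after the transcript start (RefSeq, GRCm38.p6). The 9 members had 7 windows in all, so not every member was read, and 0 of these windows held these letters. Of the other 100 pathway genes 72 had windows, 99 in all, and 0 held it, against 83 of 32851 windows, or 0.253%, over 27025 genes. No match says only that these 9 letters are not in this window.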

How the data were processed

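RNA of 3 wild-type and 4 PRA transgenic mammary glands was hybridised, 1 animal an array, with a common reference. The deposited files of the authors hold intensity values (processed signals) from Agilent Feature Extraction (12.0 in the submitters' processing notes), which subtracts background, normalizes dyes and sets dim signals to surrogate values. The authors also deposited a table of log2 values, which 100% of the time lay within 0.01 of the log2 ratio centred on the median of the 7 arrays. No per-sample column was left unused. Groups came from the sample labels, and positions from the files.

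The log2 ratio of the processed signals was computed without control and outlier spots, and the spots of a probe were averaged. A probe was kept if its Cy5 signal was flagged well above background on every array of 1 genotype or both (34283 were kept and 22322 were not). The brightest kept probe stands for a gene. Genotypes were compared in R 4.3.3 by limma 3.58.1 (lmFit, then eBayes), with p-values adjusted by Benjamini-Hochberg, after a test on simulated data. No array had a saturated spot. The number of arrays limits the precision.

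The members, lists and tests were chosen with earlier results of these data known. Genes named are all members with every probe, up to 4 genes a list with the lowest P under 0.05, and the 3 nearest patterns of the 3 most variable tested members. The hedgehog signalling list was typed by symbol, its membership unchecked. Marker lists covered luminal and basal epithelium, fibroblasts, white and brown adipocytes, skeletal muscle, endothelium, Schwann cells, T cells, B cells and macrophages. Markers not given beside a member had mean log2 ratios of 4.56 to 5.30 (brown adipocyte), 4.66 to 5.36 (endothelium) and 1.62 to 2.83 (macrophage). Alternatives were normexp with loess, the series table, other filters, Cy5 alone, quantile normalization, median centring, the methods' t-test, an intensity trend, array weights, a replicate block, each array left out and the median over a gene's probes.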

Additional observations from a re-analysis of the deposited data

Results flagged for a closer look

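Among 33 groups of arrays examined for a value far from the rest of its group, 2 stood out, where chance gives 1.65. In both the array was PRA transgenic 4. Its 10 fibroblast markers averaged 2.19, with the other 3 PRA transgenics at 1.82 to 1.85, so that the gap made up 0.899 of the group's range. Its 9 skeletal muscle markers averaged 3.00, with the others at -0.93 to -0.51, a gap of 0.892 of the range. Wild-type 1 and 3 also had high muscle markers, at 2.03 and 2.92, with wild-type 2 at -0.78. Without PRA transgenic 4 the log2 ratio differences were -0.94 and -0.95 for the Hhip probes, -0.71 for Dhh and -0.65 for Gli2. The part of fibroblast and muscle RNA in the members' values was not tested.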

How the results depend on the processing

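Of 270 values of members and lists under the alternatives, 244 kept their direction and side of the threshold, 26 reversed and 0 became significant, and no member passed an adjusted p of 0.05 in any of the 18 alternatives to the log2 ratio fit (lowest 0.285). The Hhip, Dhh and Gli2 differences were below 0 in each alternative that tested them. They ran from -1.15 to -0.28 and -1.22 to -0.23 for the Hhip probes, -0.96 to -0.23 for Dhh and -0.66 to -0.13 for Gli2. The alternatives reuse the same mice. The Gli2 probe and Hhip A_55_P1969276 were kept only through the wild-type mice, so their sign is no support for a lower level. The cause of the changes below was not tested.

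The number of member genes with an unadjusted P under 0.05 was 2 in the log2 ratio. It was 0 where both channels had to be above background on all arrays, which leaves 4 of the 7 genes. That filter leaves out Dhh and Hhip, the 2 genes called, so the 0 is no test of them. The count was 1 with Cy5 alone, quantile normalization and the replicate block. Of 34283 probes, 2992, 3704 and 3369 were called in these settings, against 3093 in the main fit. With an array left out the count was 1 to 3. It was 1 without wild-type 2, wild-type 3 or PRA transgenic 3, when Dhh was lost. Among all probes, 2519 were called without wild-type 2 and 2565 without wild-type 3. In Cy5 alone the count of 1 was 2 with no further scaling, which moved the median of all probes by -0.21, and 0 to 1 with an array left out, being 0 without wild-type 1 or PRA transgenic 1, 2 or 3. Without wild-type 2 it was again 1, with Hhip in place of Gli2.

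Over all probes, 4 had an adjusted p under 0.05. This was 15 with no filter on dim probes, 1 with the methods' t-test, 11 with array weights, 0 with the replicate block (where 3369 had an unadjusted P under 0.05) and 1 to 12 with an array left out, being 2 without wild-type 3, 1 without PRA transgenic 3 and 12 without PRA transgenic 4. The 1551 probes with P under 0.05 and 1.5-fold became 328 with normexp and loess, 3367 with no filter, 468 with both channels above background, 995 with the methods' t-test, 2442 with the block and 1381 to 2332 with an array left out, the most without PRA transgenic 4. Quantile normalization raised the share of higher probes among them from 42.9% to 56.2%. The 3093 probes with P under 0.05 became 5154 with no filter, and of these calls 62.3% were higher with quantile normalization and 40.0% with median centring, against 50.4%.

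The reversals were mostly of Ptch1, and some were larger than the main difference. A_55_P2741038 was 0.038 with Cy5 alone, 0.0077 with quantile normalization and -0.32 to 0.16 with an array left out (0.06 without wild-type 1, 0.16 without PRA transgenic 2). A_65_P18909 was -0.023 with array weights, -0.0045 with the block, -0.10 as the median over probes and -0.25 to 0.49 with an array left out. In Cy5 with no further scaling these were -0.17 and -0.12, with Smo at -0.073 and Gli1 at -0.18. With an array left out in Cy5 the ranges were -0.16 to 0.0058 for A_51_P127435, -0.087 to 0.27 for A_55_P2741038, -0.34 to 0.35 for A_65_P18909 and -0.078 to 0.19 for Gli1. The median of the ligand processing list was 0.11 with both channels above background, and that of the relay list 0.018 as the median over probes.

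Replicate numbers are shared by the labels, which do not say whether they pair the mice. Deviations of same-numbered arrays correlated at r = 0.10, -0.30 and 0.04, and those of differently numbered arrays at -0.30 to 0.38. So few correlations cannot decide pairing, and the main fit treated the mice as unpaired. The slide as a block was not run, since there was 1 slide.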
